A study of Mus musculus with 18 samples.

Results

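The genes of respiratory complex I named Nduf were taken from the RNA-seq count table as every row whose symbol begins with Nduf, leaving out symbols that contain -ps. This gave 50 of 54347 rows. By the same naming, 12 were core subunits (Ndufs and Ndufv), 30 accessory subunits (Ndufa, Ndufb and Ndufc) and 8 assembly factors (Ndufaf). The names carry some limits. Ndufs4, Ndufs5, Ndufs6 and Ndufv3 count as core by name but are accessory in the structure of the complex, and Ndufa4 is today assigned to complex IV. GENCODE M21 annotates 47 of the 50 as protein coding. It lists Ndufb4c and Ndufs6b as processed pseudogenes and Ndufb1, under the name Ndufb1-ps, as a noncoding transcript. Low counts left 48 of the 50 for testing, since Ndufb11b and Ndufs6b held 0 to 3 counts in every library.

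Polyadenylated RNA was sequenced from 3 fat depots of 6 mice: the interscapular brown adipose tissue (iBAT), and as white fat the inguinal (iWAT) and epididymal (eWAT) depots. All mice were C57BL/6N, 12 weeks of age and, by the study's methods, fed chow. Of these, 3 were wild type (wt) and 3 their ΔGm15551 litter mates (ko), which carry a germline deletion made with CRISPR/Cas9 that takes exon 1 of the long noncoding RNA gene Gm15551, from a line backcrossed to wild type. Every combination of tissue and genotype held 3 libraries, and a replicate number within a genotype stands for 1 mouse in all 3 tissues. How many founders the line had was not given in the sources used here. On diet the study's results differ from its methods, since they introduce the adipose transcriptomes as those of mice on high-fat and on control diet.

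Complex I oxidises NADH at the tip of an arm that reaches into the mitochondrial matrix, passes the electrons along iron-sulfur clusters to ubiquinone, and pumps protons through an arm in the inner membrane. Its catalytic core is made by nuclear genes and by genes of the mitochondrial genome, the accessory subunits surround that core, and assembly factors help to build the complex without staying in it. In brown adipocytes Ucp1 lets protons return across the inner membrane without passing ATP synthase, so that the energy of NADH oxidation is released as heat.

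Values are estimated counts, given as CPM, that is per 1e6 counts after scaling by the trimmed mean of M values (TMM). Library totals lay between 14997901 and 34389586 counts. Gm15551 held 40 to 316 counts in the wt libraries and 0 to 4 in the ko libraries. Summed brown adipocyte markers (7 genes, among them Ucp1 and Cidea) reached 7330.4 to 12828 CPM in iBAT, against 27.7 to 325 CPM in iWAT and 7.82 to 23.0 CPM in eWAT. A few white fat libraries stood apart. The sum of 8 B cell and lymph node markers, among them Ms4a1, was 1188 CPM for iWAT wt replicate 3 and 537 CPM for iWAT ko replicate 2, against at most 18.01 CPM in any other library. The 7 epididymis markers, among them Crisp1, added up to 4823 CPM in eWAT ko replicate 3 and to at most 16.8 CPM elsewhere. The 10 skeletal muscle markers, among them Acta1 and Ckm, gave 4554 CPM for iWAT ko replicate 1 and at most 25.3 CPM elsewhere.

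To ask how far complex I expression sets brown apart from white fat, the tissues were compared over both genotypes. In iBAT 47 of the 48 tested Nduf genes were higher than in iWAT and 47 of 48 were higher than in eWAT (edgeR quasi-likelihood F-test, adjusted p under 0.05 over 18728 genes). Of all genes tested, 24.0% were called higher in iBAT than in iWAT and 24.4% higher than in eWAT. The 47 genes were the same in both comparisons, and Ndufa4l2 was the exception in both. Ndufa4l2, the paralogue of Ndufa4, counts as accessory by name and was left out of the grouping by structure. In that grouping 30 of 30 accessory subunits were called higher in iBAT in each comparison. The median log2 fold change over the 48 genes was 2.22 against iWAT and 2.42 against eWAT, or 4.67-fold and 5.35-fold, beside medians of -0.14 and -0.17 over all genes. For each of these 47 genes every iBAT library lay above every iWAT and every eWAT library, a pattern held by 17.7% of all genes against iWAT and 18.8% against eWAT. Together the 50 genes took 1.30 ± 0.0706% of all counts in iBAT, 0.441 ± 0.0907% in iWAT and 0.402 ± 0.0451% in eWAT (SD, n = 6). The ratios of these shares are smaller than the fold changes. The shares are unscaled, while the fold changes rest on counts scaled by TMM, with factors of 0.617 to 0.744 in iBAT and 1.06 to 1.44 in white fat. Mitochondrial genes took 22.9 to 27.0% of counts in iBAT and 3.77 to 9.64% in white fat. Of the nuclear counts alone the Nduf share was 1.74 ± 0.0898% in brown fat, 0.475 ± 0.106% in the inguinal depot and 0.421 ± 0.0487% in the epididymal depot. In tissue RNA of this kind fewer cells of a type and less RNA per cell cannot be told apart. Markers of other cells also stood at unlike levels. For 5 macrophage markers, among them Cd68 and Adgre1, the summed level came to 78.8 ± 31.4 CPM in iBAT against 687 ± 558 CPM in iWAT, and to 390.1 ± 144 CPM in eWAT (SD over 6 libraries). The highest iWAT sums, 1437 and 1345 CPM, were those of the lymph node libraries, and every white fat sum but that of the epididymis library lay above every iBAT sum. For 4 mesothelium markers, among them Upk3b and Msln, the sums came to 0.370 ± 0.464, 19.4 ± 21.1 and 83.4 ± 21.3 CPM in iBAT, iWAT and eWAT, and the iBAT libraries lay below all others. The part of these cells in the Nduf differences was not tested.

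The 3 classes differed in size of change. The median log2 fold change in iBAT over iWAT was 2.42 for the 11 tested core subunits, 2.27 for the 29 tested accessory subunits and 1.49 for the 8 assembly factors. Over eWAT the medians were 2.75, 2.43 and 1.61. The order held within every animal. Taken as a difference between tissues of the same mouse, the class median of core subunits exceeded that of assembly factors in 6 of 6 mice, by 0.70 to 1.09 on the log2 scale against iWAT and by 0.83 to 1.25 against eWAT. Core subunits exceeded accessory subunits by less, 0.05 to 0.32 and 0.17 to 0.41, again in 6 of 6 mice. These class differences are descriptions and were not tested, since members of a class are not replicates. The assembly factors made up 1.79 ± 0.117% of the summed Nduf CPM in iBAT but 2.99 ± 0.286% in iWAT and 3.08 ± 0.304% in eWAT (SD, n = 6). Without the lymph node libraries the medians against iWAT were 2.19, 2.03 and 1.31, and without the epididymis library those against eWAT were 2.70, 2.40 and 1.55.

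**Figure D1:**
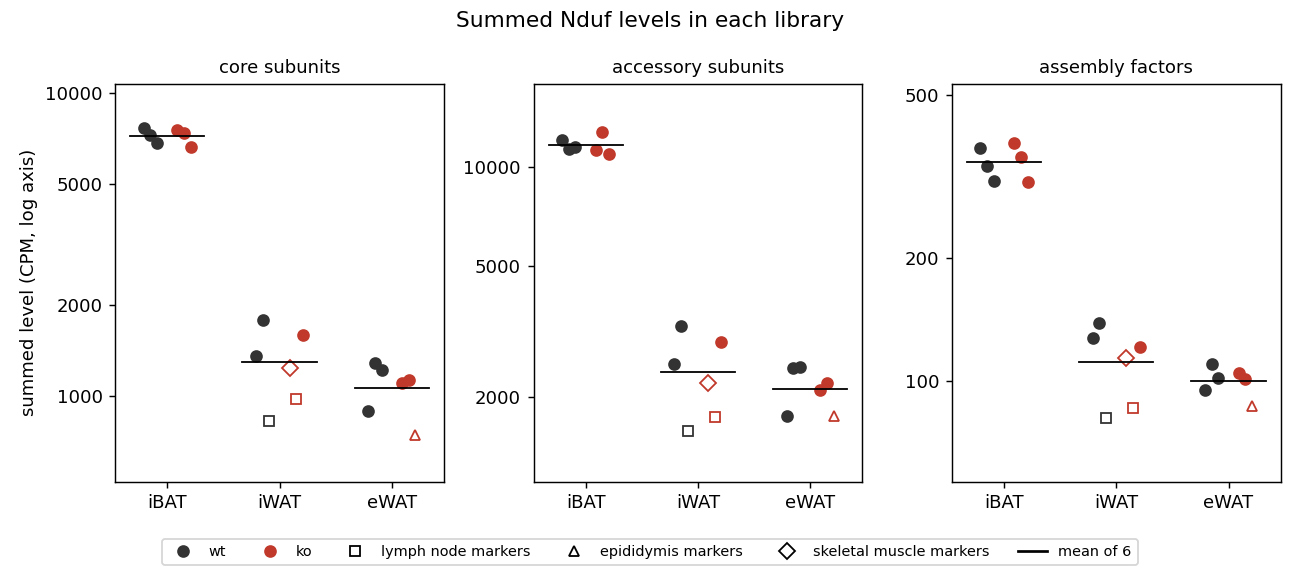
Summed CPM of the core subunits, accessory subunits and assembly factors in each of the 18 libraries, by tissue, on log axes. Black points are wt, red points ko, open symbols the libraries with lymph node, epididymis or skeletal muscle markers, and bars the mean of 6 libraries. The iBAT libraries lie above all white fat libraries in each class, and the lowest iWAT and eWAT core sums belong to the lymph node and epididymis libraries.

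Among the core subunits, Ndufv1, the subunit that binds NADH and the flavin, had the largest rise against iWAT. Its lowest, median and highest levels were 1256, 1383 and 1488 CPM in iBAT, 99.8, 182 and 248 CPM in iWAT, with 113, 162 and 191 CPM in eWAT. The lowest iBAT library held 5.05 times the level of the highest iWAT library. The log2 fold change was 2.96 ± 0.20 (SE) against iWAT and 3.17 ± 0.20 against eWAT (edgeR adjusted p = 5.53e-09 and 1.74e-09). Ndufs8, which carries iron-sulfur clusters near the ubiquinone site, rose most against eWAT. It stood at 331, 390.1 and 415 CPM in iBAT, 44.7, 53.2 and 80.8 CPM in iWAT, with 33.4, 42.5 and 49.3 CPM in eWAT (lowest, median and highest), with no overlap between brown and white libraries. Its log2 fold change was 2.75 ± 0.15 against iWAT and 3.18 ± 0.15 against eWAT (edgeR adjusted p = 5.78e-10 and 9.84e-11).

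Other nuclear subunits of the catalytic core rose by 2.33 to 2.58 on the log2 scale against iWAT. Ndufs7, beside the ubiquinone site, ranged over 440.0 to 513 CPM in iBAT, 68.5 to 131 in iWAT, with 59.4 to 96.6 in eWAT, and the ranges of the next genes follow the same order of tissues. Ndufs1, the largest subunit of the matrix arm, ranged over 709 to 1031, 87.8 to 226 and 65.3 to 132 CPM and had the greatest spread of these genes within iBAT. Ndufv2, the iron-sulfur partner of Ndufv1, ranged over 627 to 738, 79.7 to 162 and 80.1 to 112 CPM. Ndufs3, a scaffold of the ubiquinone module, ranged over 491 to 583, 68.4 to 143 and 64.1 to 109 CPM. None of these ranges in iBAT touched a white fat range. The 4 subunits that are core only by name changed by 1.94 for Ndufv3 to 2.56 for Ndufs6 against iWAT, and with the 7 catalytic subunits alone the core median was 2.43 against iWAT and 2.83 against eWAT.

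Ndufs4, a small subunit of the NADH module whose loss causes Leigh-like disease in mice, ranged over 235 to 288 CPM in iBAT, 40.2 to 85.4 in iWAT, with 41.3 to 64.4 in eWAT, with log2 fold changes of 2.06 ± 0.17 and 2.29 ± 0.18. Ndufs6, which binds zinc, ranged over 263 to 339, 33.9 to 68.1 and 34.7 to 48.7 CPM, with log2 fold changes of 2.56 ± 0.17 and 2.75 ± 0.17. Ndufv3 was the core-named gene with the smallest change, 1.94 ± 0.19 against iWAT and 1.93 ± 0.19 against eWAT, at 365 to 439, 63.9 to 134 and 67.2 to 122 CPM. Ndufs5, on the side of the intermembrane space, changed by 2.14 ± 0.19 and 2.35 ± 0.19. All 4 were called and none overlapped between brown and white fat.

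Medians by place in the complex lay close together. The median log2 fold change against iWAT was 2.30 in the NADH-oxidising module (8 genes), 2.34 in the ubiquinone module (8 genes), 2.14 in the proximal membrane arm (9 genes) and 2.30 in the distal membrane arm (11 genes). Against eWAT the medians were 2.53, 2.63, 2.35 and 2.56. Within each module the genes spread more than the module medians did, for example from 1.59 for Ndufa2 to 2.96 for Ndufv1 in the NADH module. The membrane subunit Ndufb1, whose change of 1.66 against iWAT lay below all genes of both membrane arm lists, was in none of the 4 lists, nor were Ndufa4, Ndufa4l2 and the row Ndufb4c.

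The accessory subunits spanned the widest range. Ndufb8 of the distal membrane arm rose most against iWAT, with 946, 972 and 1080.4 CPM in iBAT and 78.1, 149 and 204 CPM in iWAT (lowest, median and highest) and a log2 fold change of 2.79 ± 0.21 (edgeR adjusted p = 1.44e-08). In eWAT it stood at 120.4, 171 and 206 CPM, and the log2 fold change against that tissue, 2.56 ± 0.20, was the smaller of the pair, as it was for 5 of the 48 genes (Ndufa2, Ndufa4l2, Ndufb7, Ndufb8 and Ndufv3). Ndufa10, which has the fold of a nucleoside kinase, led the accessory subunits against eWAT. Its levels were 955, 1130.3 and 1166 CPM in iBAT, 92.6, 171 and 228 CPM in iWAT, with 102, 139 and 155 CPM in eWAT, and it rose against eWAT by 3.02 ± 0.19 on the log2 scale (edgeR adjusted p = 1.77e-09). Ndufa1, a small single-span membrane subunit encoded on the X chromosome, held 331, 364 and 435 CPM in iBAT, 43.1, 53.5 and 94.1 in iWAT and 32.3, 49.4 and 56.6 in eWAT, with log2 fold changes of 2.52 ± 0.20 and 2.96 ± 0.21. The difference between the white depots was larger for Ndufa1 than for most members. Ndufa2, a thioredoxin-fold subunit of the NADH module, had the smallest change among called accessory subunits. It went from 51.9, 69.2 and 99.7 CPM in iWAT, with 55.0, 77.5 and 99.3 CPM in eWAT to 194, 209 and 248 CPM in iBAT, or 1.59 ± 0.16 and 1.49 ± 0.16 on the log2 scale (edgeR adjusted p = 3.71e-07 and 5.79e-07). 

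Other accessory subunits lay between these ends. Ndufb6 of the distal arm changed by 2.66 ± 0.19 against iWAT and 2.93 ± 0.20 against eWAT, at 376 to 452 CPM in iBAT, 38.5 to 95.4 in iWAT, with 37.2 to 61.3 in eWAT. Ndufa9, which binds NADPH beside the ubiquinone module, changed by 2.45 ± 0.18 and 2.73 ± 0.18, at 597 to 695, 73.0 to 161 and 65.9 to 121 CPM. Ndufab1, which also serves as the acyl carrier protein of mitochondrial fatty acid synthesis, changed by 2.37 ± 0.20 and 2.60 ± 0.20, at 461 to 559, 57.9 to 137 and 56.2 to 108 CPM. These 3 genes were called in both comparisons without overlap. Ndufa13, also known as Grim19, held 327, 368 and 405 CPM in iBAT, 69.0, 98.5 and 131 in iWAT, with 52.7, 86.4 and 98.8 in eWAT (lowest, median and highest), and changed by 1.91 ± 0.16 and 2.16 ± 0.17. Ndufa7 of the ubiquinone module changed by 1.66 ± 0.16 and 1.67 ± 0.16, the smallest in that module against iWAT. Ndufb1 lay beside it against iWAT, at 1.66 ± 0.15. Ndufb4 and the processed pseudogene row Ndufb4c were both called higher in iBAT, but the pseudogene row held 1.405 to 2.25 times the counts of Ndufb4. Their sequences were not compared here. Reads of the pair may have been split between them, and the value of each is uncertain.

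**Figure D2:**
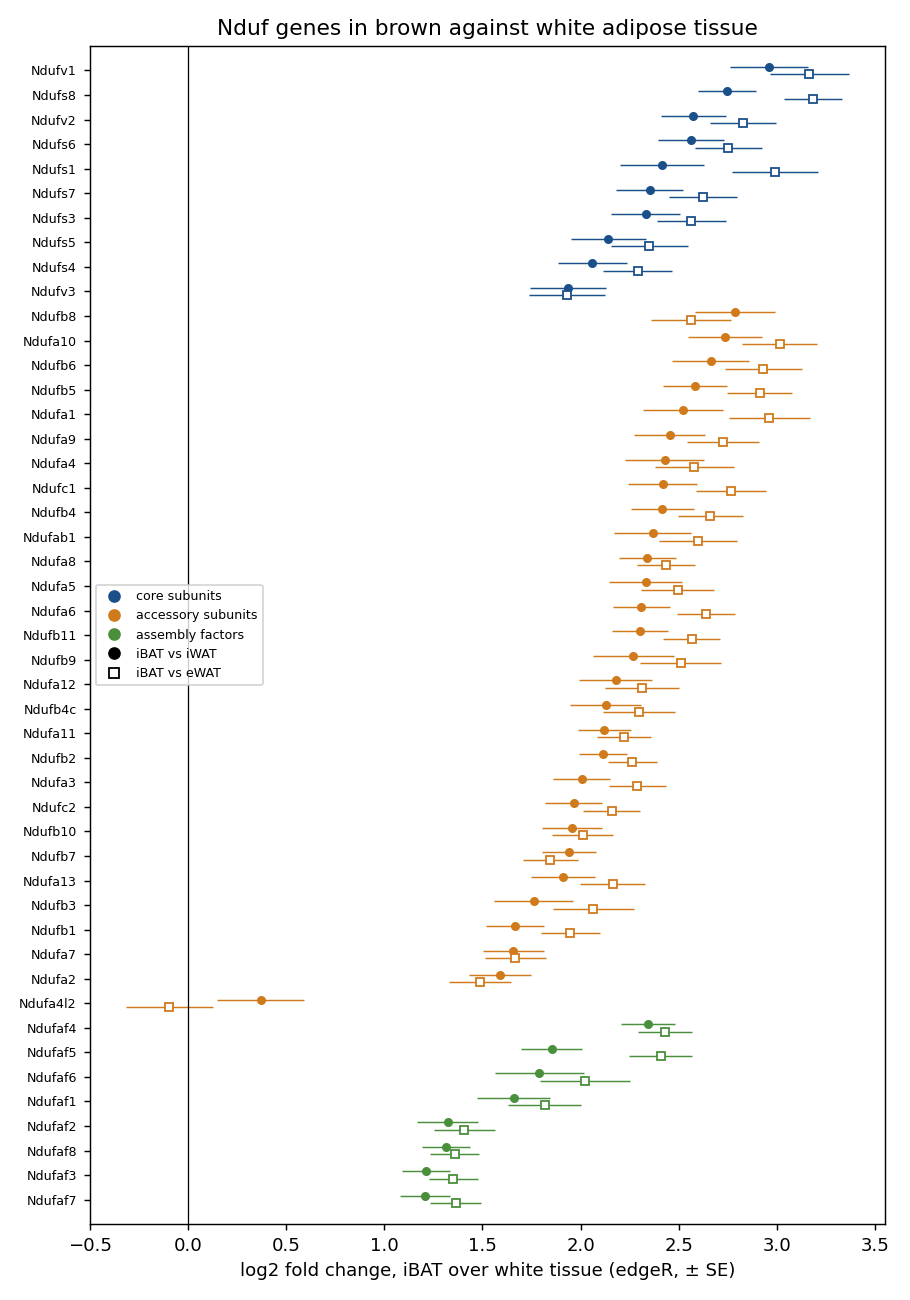
Log2 fold change with SE (edgeR) of tested Nduf genes in iBAT over iWAT (filled circles) and over eWAT (open squares), ordered within each class. Points right of 0 are higher in iBAT. All genes drawn but Ndufa4l2 lie between 1.21 and 3.18, the assembly factors sit lowest as a class, and Ndufa4l2 lies at 0.37 and -0.10.

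The paralogues Ndufa4 and Ndufa4l2 parted. Ndufa4 stood at 967, 1001 and 1168 CPM in iBAT, 115, 197 and 273 in iWAT and 124, 183 and 209 in eWAT (lowest, median and highest), log2 fold changes of 2.43 ± 0.20 and 2.58 ± 0.20 (edgeR adjusted p = 5.02e-08 and 1.79e-08). Every brown library lay above every white one for Ndufa4. Ndufa4l2, whose product is known from hypoxia, held 13.3, 11.6 and 12.7 CPM in wt replicates 1 to 3 and 11.5, 12.3 and 12.2 CPM in ko replicates 1 to 3 of iBAT. In iWAT it held 15.2, 8.503 and 6.27 CPM in wt replicates 1 to 3 and 10.4, 6.12 and 10.5 CPM in ko replicates 1 to 3. In eWAT the values were 17.4, 13.3 and 13.2 CPM in wt replicates 1 to 3 and 14.8, 13.8 and 6.49 CPM in ko replicates 1 to 3. The iBAT values fell inside both white fat ranges, and the lowest 3 of the 18 values were those of the lymph node and epididymis libraries. Its log2 fold change was 0.37 ± 0.22 against iWAT and -0.10 ± 0.22 against eWAT (edgeR adjusted p = 0.170 and 0.735). The ratio of Ndufa4 to Ndufa4l2 CPM came to 83.8 ± 6.17 in iBAT, 20.9 ± 6.28 in iWAT and 13.9 ± 3.89 in eWAT (SD, n = 6). The lowest ratio in iBAT, 78.7, lay above the highest in white fat, 32.1.

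All 8 assembly factors were called higher in iBAT. As a class they rose by less than the subunits, with medians of 1.49 against iWAT and 1.61 against eWAT. Ndufaf4 rose most of them, and against iWAT its change lay above the accessory median of 2.27. Ndufaf3 and Ndufaf4 are partners that hold an early form of the ubiquinone module. Ndufaf4 stood at 72.0, 88.9 and 109 CPM in iBAT, 13.6, 17.8 and 22.6 in iWAT and 15.5, 16.8 and 17.2 in eWAT (lowest, median and highest). Its log2 fold change was 2.34 ± 0.14 against iWAT and 2.43 ± 0.14 against eWAT (edgeR adjusted p = 1.53e-09 and 6.38e-10), close to the accessory median. Ndufaf3 stood at 35.3, 36.0 and 43.1 CPM in iBAT, 12.3, 16.2 and 21.7 in iWAT and 12.9, 15.2 and 16.4 in eWAT, a log2 fold change of 1.21 ± 0.12 and 1.35 ± 0.12 (edgeR adjusted p = 4.36e-07 and 9.63e-08). The partners thus moved by unequal amounts in the same libraries, though the difference between them was not tested.

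Ndufaf5 hydroxylates an arginine of Ndufs7 and works with Ndufaf8, which stabilises it. Ndufaf5 held 28.0, 32.4 and 36.5 CPM in iBAT, 5.56, 9.53 and 11.1 in iWAT and 4.75, 6.22 and 7.13 in eWAT, or 1.85 ± 0.16 and 2.41 ± 0.16 on the log2 scale. The lowest brown library was far above the highest white one. For Ndufaf8 the levels were 26.2, 27.5 and 33.1 CPM in iBAT, 8.57, 11.6 and 14.0 CPM in iWAT, with 10.04, 10.9 and 12.2 CPM in eWAT, or 1.31 ± 0.12 and 1.36 ± 0.12. Ndufaf7, a methyltransferase, had the smallest called change of the Nduf genes against iWAT. In iBAT it held 49.4, 51.7 and 63.8 CPM, in iWAT 16.5, 24.9 and 29.1 CPM and in eWAT 18.3, 21.4 and 22.6 CPM, or 1.21 ± 0.13 and 1.36 ± 0.13 on the log2 scale (edgeR adjusted p = 8.15e-07 and 1.54e-07).

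Ndufaf1 belongs to the assembly complex of the membrane arm. It held 47.6, 57.8 and 67.9 CPM in iBAT, 10.3, 19.0 and 22.8 in iWAT and 10.99, 16.5 and 19.7 in eWAT, log2 fold changes of 1.66 ± 0.19 and 1.82 ± 0.19. Ndufaf2 is related in sequence to the subunit Ndufa12 and acts late in assembly. In iBAT it held 20.5, 23.9 and 29.5 CPM, in iWAT 6.99, 10.04 and 13.3 CPM and in eWAT 6.98, 9.54 and 11.1 CPM, log2 fold changes of 1.32 ± 0.15 and 1.41 ± 0.16. Ndufa12 itself changed by 2.18 ± 0.19 and 2.31 ± 0.19. Ndufaf6 had the lowest level per kilobase of the assembly factors in iBAT. In iBAT it held 15.2, 18.6 and 21.2 CPM, in iWAT 3.89, 5.68 and 6.77 CPM and in eWAT 1.98, 5.34 and 5.82 CPM, log2 fold changes of 1.79 ± 0.23 and 2.02 ± 0.23. In all 8 factors the brown and white libraries did not overlap. Ndufaf2 had the narrowest gap, its lowest iBAT library holding 1.54 times the highest iWAT level and 1.84 times the highest eWAT level.

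**Figure D3:**
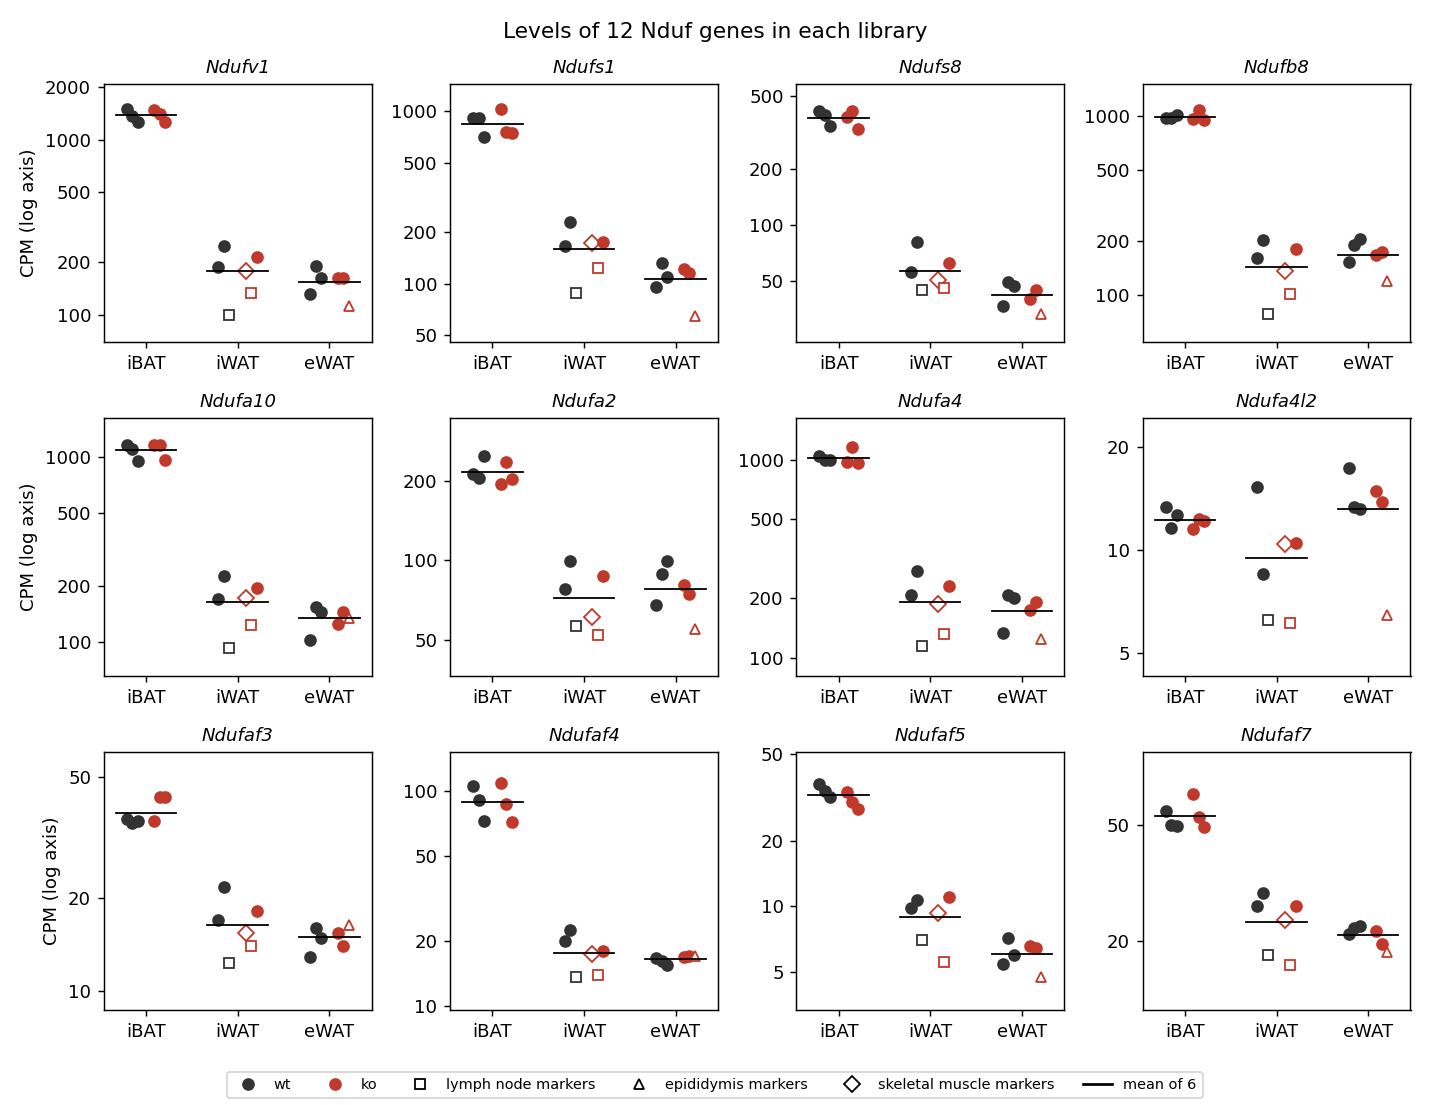
CPM of 12 Nduf genes in each library by tissue, on log axes, with black points for wt, red for ko, open symbols for the libraries with markers of other tissues, and bars for the mean of 6. Brown and white libraries are separate for each gene shown except Ndufa4l2, where iBAT (11.5 to 13.3 CPM) lies within the white fat ranges.

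Genes of complex I outside the Nduf names moved the same way. The 7 core subunits of the mitochondrial genome, mt-Nd1 to mt-Nd6 with mt-Nd4l, were all called higher in iBAT, by 2.25 (mt-Nd5) to 2.66 (mt-Nd2) on the log2 scale against iWAT and by 2.57 (mt-Nd6) to 3.40 (mt-Nd2) against eWAT. The gene mt-Nd6 is annotated on the strand opposite to the others, and strand handling was not given, so its value is less certain. Summed over the 7 genes, mt-Nd CPM was 5.09 ± 0.673 times the Nduf CPM in iBAT, 4.48 ± 1.07 times in iWAT and 3.65 ± 0.479 times in eWAT (SD, n = 6), and the ranges of the tissues overlapped. Of 14 assembly factors and helpers not named Nduf, 13 were called higher in iBAT in each comparison, with a median of 1.47 against iWAT and 1.52 against eWAT, near the medians of the Ndufaf genes. Aifm1 rose most, by 2.19 and 2.37, and Sfxn4 was not called, at 0.22 and 0.24 (edgeR adjusted p = 0.364 and 0.329). Ecsit and Acad9, which bind Ndufaf1, changed by 2.03 and 0.92 against iWAT, on either side of Ndufaf1 itself. Set beside the other respiratory complexes, the median against iWAT was 2.61 for complex II (4 of 4 genes called higher), 2.66 for complex III (9 of 9), 2.48 for complex IV (14 of 15) and 2.12 for complex V (15 of 17, with 1 called lower), against 2.22 for the Nduf genes. Against eWAT the medians were 3.05, 2.98, 2.74 and 2.37, with the same counts, against 2.42 for the Nduf genes. The sets are unlike, since the Nduf genes take in 8 assembly factors and the other sets were gathered by symbols of subunit families. Core and accessory subunits without the assembly factors had medians of 2.42 and 2.27 against iWAT and 2.75 and 2.43 against eWAT.

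Levels of different genes were compared as CPM per kilobase of transcript. In iBAT the median was 506 for core subunits, 438 for accessory subunits and 29.2 for assembly factors. The same medians were 85.7, 92.1 and 11.7 in iWAT and 75.2, 81.2 and 10.6 in eWAT. Ndufa4 ranked first in all 3 tissues, at 1933 ± 141 CPM per kilobase in iBAT (SD, n = 6). Ndufb8 and Ndufb9 took the next places in every tissue, but in white fat the spread of neighbouring ranks overlapped, as for Ndufb9 at 258 ± 88.6 and Ndufb8 at 211 ± 70.7 in iWAT. At the other end Ndufa4l2 was the lowest of the 47 ranked genes in iBAT, at 13.1 ± 0.722, while in eWAT it ranked 40, above all but 1 of the assembly factors. The median coefficient of variation of the tested Nduf genes over 6 libraries came to 8.01% in iBAT, 27.6% in iWAT and 17.1% in eWAT, beside 20.7%, 28.1% and 25.5% over all tested genes. The gene sets were not matched for level, and counting error weighs more on genes with few counts.

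The start regions of the genes were searched for sequences known from promoters of respiratory genes, as a description of members that moved together. RefSeq windows on GRCm38.p6, reaching from 250 bases before to 50 bases after the start, were given for 41 of the 50 symbols (43 windows). On both strands, the letters AAGATGGC of a YY1 site stood in 8 of 43 windows (18.6%, against 2.75% of all 32851 windows). GCATGCGC of an NRF1 site stood in 5 (11.6% against 2.71%), AAGGTCA of an ERR half-site in 3 (6.98% against 4.72%) and CCGGAAGT of an ETS site in 1 (2.33% against 3.89%). The matches to YY1, the most frequent of these, are shown in the direction in which the motif reads, with the motif in capitals.
Ndufa3 (chr7:3617385-3617412, plus strand): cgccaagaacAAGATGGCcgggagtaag
Ndufa9 (chr6:126849098-126849125, minus strand): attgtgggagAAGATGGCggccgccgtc
Ndufaf8 (chr11:120098934-120098961, plus strand): ggcagggcccAAGATGGCggcgccctcg
Ndufb8 (chr19:44555393-44555414, minus strand): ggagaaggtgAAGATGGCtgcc
Ndufc1 (chr3:51408916-51408943, minus strand): cctgcggaacAAGATGGCgccgtccgta
Ndufs4 (chr13:114388045-114388069, minus strand): tgcctacaggAAGATGGCggcggtc
Ndufs6 (chr13:73328433-73328459, minus strand): ggtcaccggcAAGATGGCggcggtgct
Ndufs7 (chr10:80249463-80249490, plus strand): ggccgaggccAAGATGGCggcgctggcg
All 8 lay after the start, and in 7 of 8 the ATG within the match is the start codon annotated in GENCODE M21, Ndufaf8 being the exception, so these letters overlap the beginning of the reading frame. The NRF1 matches, in capitals, lay on either side of the start.
Ndufa11 (chr17:56717694-56717721, plus strand): tgcactgcgcGCATGCGCgcacgccttg
Ndufa6 (chr15:82354357-82354384, minus strand): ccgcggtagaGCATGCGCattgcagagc
Ndufa8 (chr2:36049329-36049356, minus strand): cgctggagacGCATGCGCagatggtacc
Ndufaf4 (chr4:24897962-24897989, plus strand): agatgtctgcGCATGCGCctgtgcggaa
Ndufaf5 (chr2:140170654-140170681, plus strand): tcccgttggcGCATGCGCctaatagaaa
In Ndufa11, Ndufaf4 and Ndufaf5 the letters can also be read on the opposite strand within the same palindrome, so these matches overlap, and Ndufaf4 holds another match just after the start. The 3 ERR half-sites, in capitals, all lay before the start.
Ndufb2 (chr6:39592374-39592400, plus strand): gagcagcagtAAGGTCAgccaagagca
Ndufb4 (chr16:37654407-37654433, minus strand): cctgagcctgAAGGTCAgactcgagag
Ndufs5 (chr4:123718398-123718424, plus strand): ctacttgagcAAGGTCAcactcgagaa
The median log2 fold change of iBAT over iWAT was 2.39 for the 8 genes with YY1 letters, 2.31 for the 5 with NRF1 letters, 2.14 for the 3 with ERR letters and 2.07 for 24 genes with none of the 4, and the ranges of these groups overlapped. Ndufaf4 and Ndufaf5, the assembly factors with the largest rise against eWAT, were the 2 of 7 assembly factor windows with NRF1 letters. Whether the letters and the rise are linked was not tested, and the letters in Ndufaf5 lie after the start. A match does not show binding.

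Few differences were called between the white depots. Of the 48 genes, 1 was called between iWAT and eWAT, Ndufaf5, higher in iWAT, where 5.70% of all genes were called higher in iWAT. Ndufaf5 held 9.77, 10.7 and 6.99 CPM in wt replicates 1 to 3 and 9.28, 5.56 and 11.1 CPM in ko replicates 1 to 3. In eWAT it held 5.41, 7.13 and 5.98 CPM in wt replicates 1 to 3 and 6.56, 6.45 and 4.75 CPM in ko replicates 1 to 3. The lowest iWAT libraries were those with lymph node markers, and they overlapped the eWAT range. The log2 fold change was 0.56 ± 0.15 (edgeR adjusted p = 0.0307). The call was lost under 8 of the 16 alternatives, with adjusted p up to 0.222, among them leaving out wt replicate 1, wt replicate 2, ko replicate 1 or ko replicate 3. Without the epididymis library alone the log2 fold change was 0.50 (edgeR adjusted p = 0.0578).

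Over the 48 genes the median log2 fold change of iWAT over eWAT was 0.22, and 43 of 48 values were positive, beside a median of 0.01 over all genes. Leaving out single mice gave medians from 0.08 without ko replicate 3, with 37 of 48 positive, to 0.35 without wt replicate 3, with 45 of 48 positive. Within mice the median difference was positive in 4 of 6 and negative in wt replicate 3 (-0.51) and ko replicate 2 (-0.27). At the ends lay Ndufs1 (0.57 ± 0.20, edgeR adjusted p = 0.0825), Ndufa1 (0.44 ± 0.19, adjusted p = 0.161) and Ndufa4l2 (-0.47 ± 0.22, adjusted p = 0.198). Ndufb8 and Ndufa2 were the next lowest, at -0.22 ± 0.19 and -0.10 ± 0.15. The summed Nduf level followed the libraries more than the depot. In iWAT it was 3992, 5211 and 2484 CPM in wt replicates 1 to 3 and 3561, 2806 and 4636 CPM in ko replicates 1 to 3. In eWAT it was 2736, 3838 and 3782 CPM in wt and 3312, 3424 and 2576 CPM in ko replicates. The lowest sums in iWAT were those of the lymph node libraries and the lowest in eWAT that of the epididymis library.

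These libraries also had the lowest sums of common adipocyte markers (6 genes, among them Adipoq and Fabp4), 10133 and 14523 CPM in the lymph node libraries against 24946 to 28873 in the other iWAT libraries, and 12712 CPM in the epididymis library against 20613 to 29734 in the other eWAT libraries. Per 1000 CPM of these adipocyte markers the order turned, and the same libraries held the most Nduf CPM of their depot, 245 and 193 against 135 to 186 in iWAT and 203 against 113 to 135 in eWAT. Among iWAT libraries the highest Nduf sums, in wt replicate 2 and ko replicate 3, went with the highest sums of brown adipocyte markers, 325 and 296 CPM. The part of other tissues and of brown adipocytes in these values was not tested. Without both lymph node libraries 12 of the 48 genes were called, all higher in iWAT: Ndufa6, Ndufa10, Ndufaf5, Ndufaf7, Ndufb1, Ndufb5, Ndufc1, Ndufs1, Ndufs4, Ndufs5, Ndufs8 and Ndufv2. In that fit 5.02% of all genes were called higher in iWAT. The median over the 48 genes was then 0.42, with 0.80 for Ndufs1 (edgeR adjusted p = 0.0102) and 0.76 for Ndufaf5 (adjusted p = 8.24e-04). Without the epididymis library it was 0.14 and 0 genes were called.

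The study asked what loss of Gm15551 does in fat, and no Nduf gene was called between genotypes. Across tissues 0 of 48 genes were called between ko and wt (edgeR, adjusted p under 0.05), where 0.00534% of all genes were called. The unadjusted p of that fit was under 0.05 for 0 of 48, beside 411 of the 18728 genes tested. Within tissues 0 of 48 genes were called in iBAT, iWAT and eWAT alike, with 0.00%, 0.00% and 0.00534% of all genes called. For the interaction of genotype with tissue it was 0 of 48 (0.00% of all genes). DESeq2 gave 0 of 48 in each of these comparisons as well, where it called 4 of 18728 genes across tissues, 13 in iBAT, 4 in iWAT, 13 in eWAT and 0 for the interaction. The smallest unadjusted p was that of Ndufa2, 0.145, across tissues. Ndufa2 held 67.6, 88.7 and 99.3 CPM in wt replicates 1 to 3 and 80.4, 74.5 and 55.0 CPM in ko replicates 1 to 3 in eWAT, and the genotypes overlapped. Its log2 fold change of ko over wt across tissues was -0.19 ± 0.13 (edgeR adjusted p = 1.0), followed by Ndufa13 with -0.16 ± 0.13. The smallest p of the 3 genes with a positive value belonged to Ndufaf3 and Ndufa1, at 0.05 ± 0.10 and 0.06 ± 0.16. Approximate 95% intervals of the 48 genes, from the SE, reached from -0.53 to 0.37 across tissues, from -0.71 to 0.64 in iBAT, from -0.80 to 0.60 in iWAT and from -0.97 to 0.65 in eWAT. The fit across tissues takes the 9 libraries of a genotype as independent, although they came from 3 mice, so its p and interval leave out what the tissues of a mouse share.

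The prevailing sign of these small differences turned with single mice across tissues, in iBAT and in iWAT, and in eWAT their size did. Across tissues 45 of 48 log2 fold changes were negative, with a median of -0.07, where 48.7% of all genes were negative. Without wt replicate 2 it was 20 of 48 and the median 0.01. In iBAT 20 of 48 were negative, with a median of 0.01, and 42 of 48 without ko replicate 2 (median -0.06), but 11 of 48 without ko replicate 3 (median 0.06) and 12 of 48 without wt replicate 1 (median 0.05). In iWAT 46 of 48 were negative, with a median of -0.10, but 6 of 48 without wt replicate 2 and 9 of 48 without ko replicate 2. Without wt replicate 3 or ko replicate 3 it was 48 of 48, with medians of -0.33 and -0.30. Of these mice, wt replicate 2 gave the iWAT library with the highest Nduf sum, and ko replicate 2 and wt replicate 3 gave the lymph node libraries. Without both lymph node libraries 47 of 48 were negative with a median of -0.18. In eWAT 42 of 48 were negative, with a median of -0.15, and 31 of 48 with a median of -0.03 without the epididymis library. Leaving out other mice gave medians of -0.28 without wt replicate 1 (47 of 48 negative), -0.23 without ko replicate 2, -0.20 without ko replicate 1, -0.08 without wt replicate 3 and -0.07 without wt replicate 2. Within tissues the 3 ko libraries lay entirely above or below the 3 wt libraries for 0 of 48 genes in iBAT, 0 of 48 in iWAT and 1 of 48 in eWAT, against 4.94%, 4.92% and 5.25% of all genes. That gene was Ndufaf4, with 16.7, 16.2 and 15.5 CPM in wt replicates 1 to 3 and 16.99, 17.1 and 17.2 CPM in ko replicates 1 to 3 (log2 fold change 0.09 ± 0.19, edgeR adjusted p = 1.0).

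**Figure D4:**
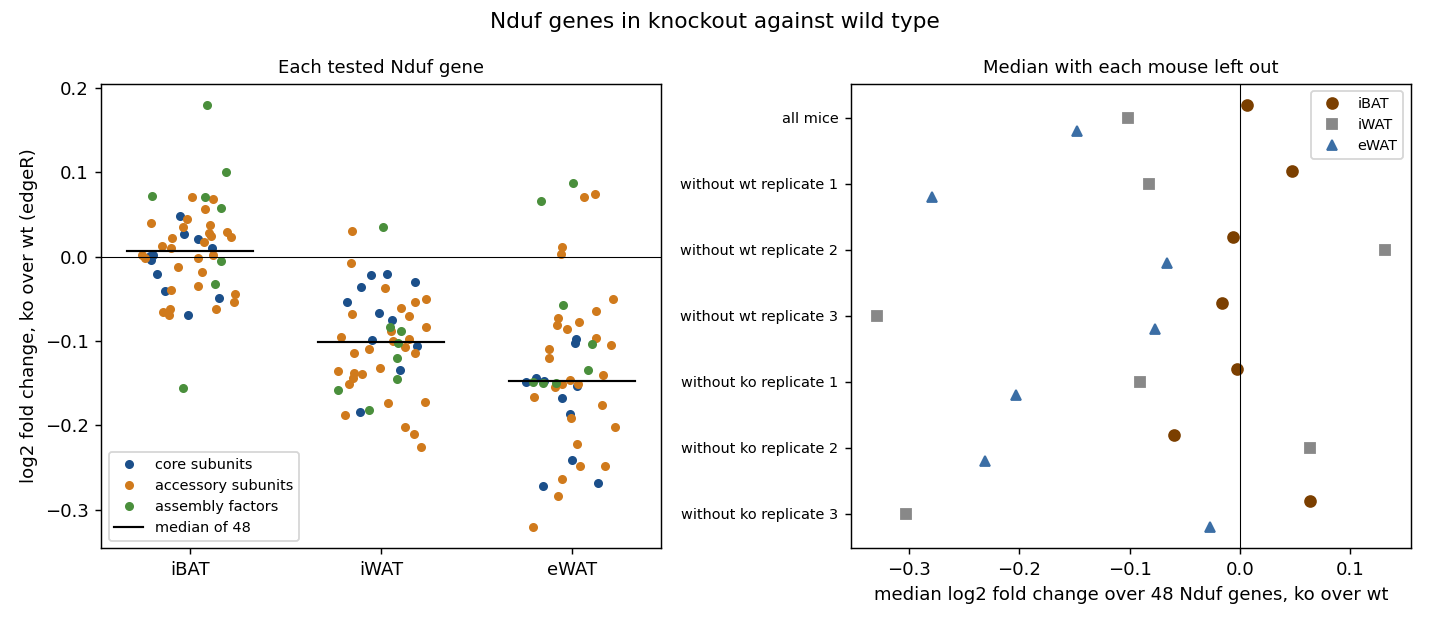
Left, log2 fold change of ko over wt (edgeR) for each of the 48 tested Nduf genes within each tissue, coloured by class, with a bar at the median. Right, the median over the 48 genes with all mice and with each mouse left out. All values on the left lie between -0.32 and 0.18, and the iWAT median crosses 0 without wt replicate 2 or ko replicate 2.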

How the data were processed

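Paired-end libraries of polyadenylated RNA from 3 wt and 3 ko mice were quantified by the authors, who trimmed reads with cutadapt, assigned them with salmon to GENCODE M22 transcripts (GRCm38) alone or joined with RNAcentral, and deposited estimated counts for each gene, whole and not normalised. Which of the references, the strand handling and how transcripts were summed was not given in the sources used here. Salmon splits shared reads by a model, so paralogues and pseudogenes are uncertain.

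Tests used edgeR 4.0.16 (quasi-likelihood, R 4.3.3) on the 18728 genes that passed filterByExpr, with TMM factors and Benjamini-Hochberg adjustment. Tissue contrasts and genotype across tissues came from an additive model of both, genotype within tissues and the interaction from group means. SE was taken as log2 fold change over the root of F. Totals of 14997901 to 34389586 counts put the 3 counts that a 0 allows at 0.0728 to 0.235 CPM, for counting error only. Lengths, gene types and start codons came from GENCODE M21. Animal identifiers in the labels pair the tissues of a mouse. Deviations from group means correlated between them with a median of 0.06 (-0.17 to 0.33, 18 pairs). Alternatives were DESeq2 1.42.0 and its size factors, scaling without mitochondrial genes, 2 other filters, a mouse or number block, wt only, and leaving out mice or libraries that stood apart.

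Values of the libraries, as all 6, their lowest, median and highest, or their range, were given for the 3 largest and 3 smallest changes of each tissue contrast, genes not called, the 2 smallest genotype p in each direction, the catalytic core by range, the Ndufa4 pair and the Ndufaf genes, and any other gene could be named. For 1 gene the results are not reported here by name. Members and lists were chosen with earlier results of these data known.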

Additional observations from a re-analysis of the deposited data

Results flagged for a closer look

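In 72 comparisons of the 6 libraries of a tissue, over 21 named genes and the 3 class sums, 0 values stood apart by Dixon's test, which by chance marks about 1 in 20. Among symbols left out of the comparisons, Ndufa12-ps held up to 11 counts and Ndufab1-ps up to 15 counts in a library, above the 3 counts that a count of 0 allows. Both are annotated as processed pseudogenes.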

How the results depend on the processing

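The counts of 47 genes higher in iBAT than in iWAT and than in eWAT were the same under all 16 alternatives, and 47 genes were called in every one. Ndufa4l2 was not called in any, with edgeR or DESeq2 adjusted p of 0.0657 to 0.628 against iWAT and 0.325 to 0.938 against eWAT. Class medians kept their order, core over accessory over assembly, in all 17 fits of each iBAT comparison, and ranged over 2.19 to 2.54, 2.03 to 2.42 and 1.31 to 1.60 against iWAT. The count between iWAT and eWAT was 1. It became 2 with DESeq2 size factors, with mitochondrial genes left out of scaling and with at least 10 counts in every library, 3 with DESeq2, 12 without the lymph node libraries, and 0 without a filter, in wt libraries only, without the epididymis library or without the muscle library. The share of all genes called higher in iWAT was 5.82%, 5.76%, 4.73%, 8.22%, 5.02%, 2.13%, 0.6246%, 4.93% and 5.76% in these fits in turn. Leaving out each mouse gave 0 to 3 members, beside 2.04 to 4.46% of all genes. The cause was not tested. With the mouse as a replicate block the counts were 47, 47 and 1 for the tissue contrasts and 0 for the interaction. With the replicate number as a replicate block, where same-numbered wt and ko mice share only a number (deviations correlated from -0.47 to 0.55 over 9 pairs), the genotype counts were 0. The genotype counts were 0 under all 15 alternatives in each tissue and across tissues. Depth limits Ndufs6b and Ndufb11b, at 0 to 3 counts, more than the other members.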
